A study of Mus musculus with 82 samples.

Results

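Receptors that steer T cells into, within and out of lymphoid and barrier tissues were followed: Ccr7, S1pr1, Gpr183, Ccr9 and Ccr10. These 5 were taken by gene symbol from the 21823 genes that the deposited tables share, and all 5 were present. RNA had been measured in 82 libraries of OT-II cells (CD4 T cells) and OT-I cells (CD8 T cells), which carry a transgenic antigen receptor for ovalbumin. Both kinds were transferred into wild-type mice, labelled C57BL/6 in the prophylactic experiment, and recovered by sorting from pooled spleen and lymph nodes 4 days after treatment. Recipients were given a glycosylated ovalbumin (pGal-OVA, here pGal), 5 µg of plain ovalbumin (OVA) or saline; the pGal amount is stated as 5 µg in one place and as the molar equivalent of the OVA in another.

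In the therapeutic experiment the recipients had been immunized under the skin with OVA in complete Freund's adjuvant, a strong immune stimulant, about a month before treatment, and each library came from 1 mouse. In the prophylactic experiment treatment followed the transfer by 1 day without immunization, each library came from 3 pooled mice, and there were 2 batches. The therapeutic groups were labelled OT-II with 10 pGal, 8 OVA and 7 saline libraries and OT-I with 10, 10 and 8 in the same order. The prophylactic groups were OT-II with 5 pGal, 4 OVA and 5 saline libraries and OT-I with 5 of each. The transferred cells share their antigen specificity and the recipients keep their own lymphocytes, so levels describe the sorted cells and whatever was sorted with them.

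Ccr7 binds the chemokines CCL19 and CCL21 and brings naive and central memory T cells into lymph nodes, while S1pr1 senses the lipid sphingosine 1-phosphate and lets them leave again. Gpr183 binds oxysterols and positions activated cells at the edges of the follicle and the T cell zone. Ccr9 binds CCL25 and directs cells to the small intestine and, during development, to the thymus, and Ccr10 binds CCL27 and CCL28, made by skin and mucosal epithelium. T cells that meet antigen usually lower the lymphoid receptors for a time, and the tissue in which they meet it shapes which barrier receptors they gain.

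Labels were checked first with Cd4 and Cd8a, the co-receptor genes of the 2 lineages. In 11 of the 53 therapeutic libraries the co-receptor went against the label: 6 labelled OT-I had Cd4 at 407 to 1445 counts per M (CPM) and Cd8a at 0.65 to 2.67 CPM, and 5 labelled OT-II had Cd4 at 1.93 to 4.22 CPM and Cd8a at 842 to 1351 CPM. These 11 were left out of the tests and are described on their own, which left 20 OT-II and 22 OT-I therapeutic libraries. In the prophylactic experiment 5 libraries had Cd79a, a B cell receptor gene, at 100 CPM or more. It reached 1036 CPM in 1 OT-II pGal library and 1372 CPM in 1 OT-II OVA library. The summed level of 9 B cell markers was 39.6 to 6527 CPM in prophylactic and 178 to 767 CPM in therapeutic libraries. Its group medians were lower in the prophylactic experiment, at 64.8 to 109 CPM, than in the therapeutic one, at 386 to 464 CPM. Therapeutic OT-II libraries OVA 2, pGal 2, 3 and 8 and saline 7, at 107 to 117 CPM of Cd79a, stayed in the tests. The part of B cells in the results was not tested beyond leaving out those 5 prophylactic libraries. Library totals were 21.2 to 68.2 M counts in the prophylactic and 22.6 to 62.5 M in the therapeutic experiment. Levels are CPM scaled with TMM factors, which even out differences in RNA composition, and a gene was called at an edgeR quasi-likelihood adjusted p under 0.05.

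Ccr7, S1pr1 and Gpr183 rested on at least 1973, 3014 and 2732 counts in every library. Ccr9 had 4 to 9558 counts and Ccr10 had 0 to 4203, with 6 libraries at 0, so their low levels carry wider counting error. Ccr7 lies on chromosome 11 (99144196 to 99155077, minus strand), as does Ccr10 (101172997 to 101175443, minus strand). S1pr1 is on chromosome 3 (115710433 to 115715072, minus strand), Ccr9 on chromosome 9 (123678439 to 123784330, plus strand) and Gpr183 on chromosome 14 (121952551 to 121965195, minus strand), all in GRCm38. Ccr9 shares 22 exon bases with Slc6a20a on the other strand, and Gpr183 overlaps Ubac2 without a shared exon base.

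In the prophylactic experiment the barrier receptors of OT-II cells moved in opposite directions with pGal. Ccr9, the gut-homing receptor, was at 2.77 to 19.3 CPM with pGal, against 28.5 to 40.1 CPM with OVA and 30.4 to 47.9 CPM with saline. Ccr10, the skin and mucosal receptor, averaged 12.4 ± 4.05 CPM with pGal (SD, n = 5), against 1.51 ± 0.748 CPM with OVA (n = 4) and 1.19 ± 0.694 CPM with saline (n = 5). Gpr183 and S1pr1 were also lower with pGal than with saline, and Ccr7 was not called. With 1.87% of 14128 genes called between pGal and OVA, and 11.7% between pGal and saline, 3 and 4 of the 5 receptors were called in OT-II cells. The 5 were chosen with earlier results of these data known, so these counts are no test of the receptors as a set.

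**Figure D1:**
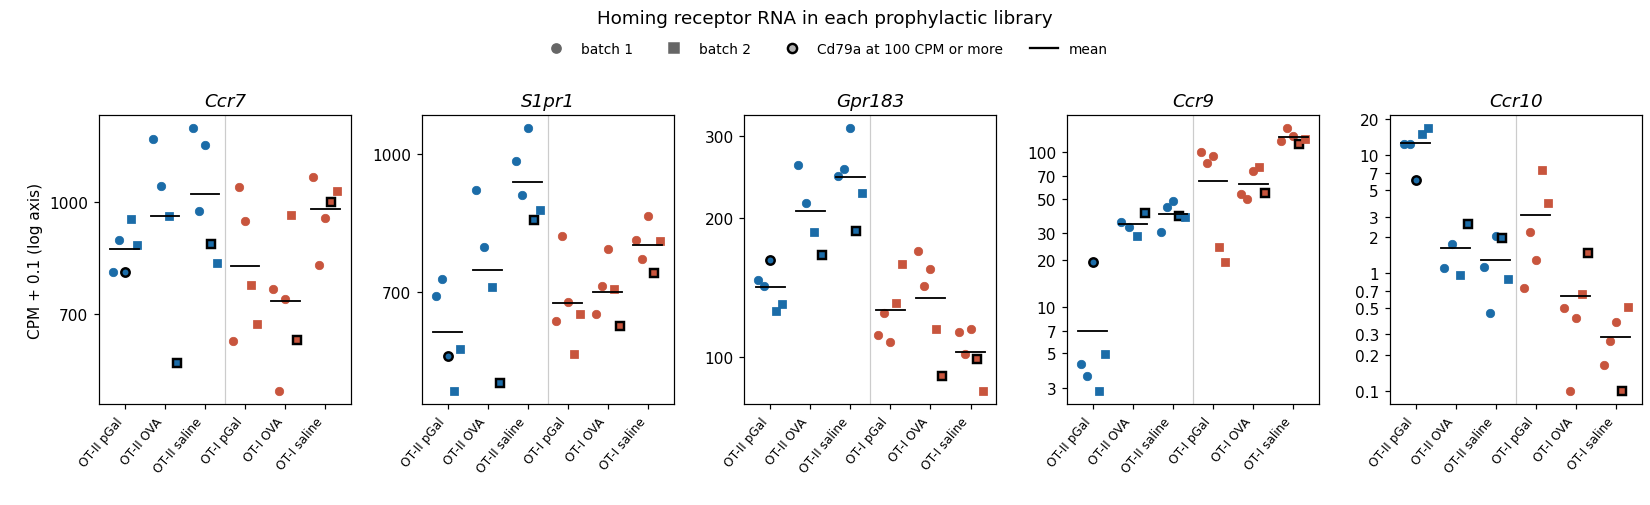
Level of each receptor in every prophylactic library (CPM + 0.1, log axis), OT-II groups left and OT-I groups right, with batch 1 as circles, batch 2 as squares, means as lines and libraries with Cd79a at 100 CPM or more outlined in black. In OT-II cells the pGal libraries lie below all saline libraries for S1pr1, Gpr183 and Ccr9 and above all saline libraries for Ccr10.

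Ccr9 read 4.19, 3.47, 19.3, 2.77 and 4.87 CPM in the 5 OT-II pGal libraries. It read 35.3, 32.5, 28.5 and 40.1 CPM in the 4 OT-II OVA libraries. In the 5 OT-II saline libraries it read 30.4, 43.9, 47.9, 38.8 and 38.0 CPM. The pGal libraries do not overlap either other group, and the pGal library that stands apart at 19.3 CPM, batch 1 number 3, is the one with 1036 CPM of Cd79a. It also had 86.1 CPM of Cd8a, against 0.330 to 4.69 CPM in the other 4 pGal libraries, and OT-II OVA library 2 of batch 2, with 1372 CPM of Cd79a, had 116 CPM of Cd8a, against 1.07 to 2.07 CPM in the other 3 OVA libraries and 1.02 to 17.6 CPM in the saline libraries; Ccr9 was higher in OT-I cells, and their part in these values was not tested. The log2 fold change was -2.43 (SE 0.475, edgeR adjusted p = 0.0209) against OVA and -2.61 (SE 0.456, edgeR adjusted p = 0.00282) against saline, while OVA against saline gave -0.18 (edgeR adjusted p = 0.947). Without the B cell-rich libraries the difference against OVA was -3.07 on the log2 scale (edgeR adjusted p = 4.1e-05). DESeq2 gave no adjusted p for Ccr9 in any of the 3 prophylactic OT-II comparisons.

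Ccr10 read 12.2, 12.2, 6.04, 15.0 and 16.7 CPM in the OT-II pGal libraries, from 258 to 743 counts. It read 1.01, 1.67, 0.866 and 2.50 CPM in the OT-II OVA libraries and 1.02, 0.359, 1.95, 1.87 and 0.780 CPM in the OT-II saline libraries. Every pGal library was above every library of the other treatments, by a ratio of means of 8.22 over OVA and 10.4 over saline. With pGal it rose by 3.04 on the log2 scale (SE 0.520, edgeR adjusted p = 0.0105) against OVA and by 3.32 (SE 0.482, edgeR adjusted p = 0.000752) against saline. Plasma cells can also carry Ccr10. The 5 plasma cell markers summed to 7.21 to 472 CPM (median 30.2) in the OT-II pGal libraries. In the OVA libraries they summed to 12.3 to 449 CPM (median 30.5), and in the saline libraries to 7.70 to 83.3 CPM (median 14.2). The pGal library rich in B cell transcripts had the lowest Ccr10 of its group, and the part of plasma cells in Ccr10 was not tested.

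Gpr183, the oxysterol receptor, read 146, 143, 162, 126 and 130 CPM in OT-II cells after pGal. It read 260, 215, 187 and 166 CPM after OVA and 246, 255, 312, 187 and 226 CPM after saline. The highest pGal library lies just under the lowest OVA library, which is the B cell-rich one, so the groups are apart by a narrow gap. With pGal Gpr183 fell by 0.58 on the log2 scale (SE 0.102, edgeR adjusted p = 0.0118) against OVA and by 0.81 (SE 0.0974, edgeR adjusted p = 0.000197) against saline. Without the B cell-rich libraries the difference against OVA was -0.66 (edgeR adjusted p = 0.00593). The call against OVA was lost without the batch term (edgeR adjusted p = 0.0995), with a replicate block (edgeR adjusted p = 0.0745) and in batch 2 alone (edgeR adjusted p = 0.526).

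S1pr1, the egress receptor, read 693, 723, 593, 543 and 604 CPM in OT-II cells after pGal, against 910, 787, 710 and 554 CPM after OVA and 981, 898, 1067, 842 and 864 CPM after saline. The pGal libraries lie under all saline libraries and overlap the OVA libraries. It fell against saline (log2 fold change -0.58, SE 0.0954, edgeR adjusted p = 0.00163) and was not called against OVA (-0.26, SE 0.101, edgeR adjusted p = 0.235).

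Ccr7, the lymph node entry receptor, read 801 to 948 CPM in OT-II cells after pGal, against 599 to 1222 CPM after OVA and 824 to 1263 CPM after saline. The groups overlap, and the log2 fold change was -0.16 (SE 0.158, edgeR adjusted p = 0.757) against OVA and -0.25 (SE 0.150, edgeR adjusted p = 0.331) against saline. Within batch 1 Ccr7 was called against saline (-0.51, edgeR adjusted p = 0.0324). No receptor was called between OVA and saline in OT-II cells by edgeR, or by DESeq2 for the 4 receptors other than Ccr9, where edgeR called 0.163% of genes; S1pr1 and Gpr183 had an unadjusted p under 0.05 there.

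Ranges that do not overlap were found for 5.32% of genes between pGal and OVA in OT-II cells and for 10.2% between pGal and saline, beside 3 and 4 of the 5 receptors. Since the receptors were chosen with earlier results known, these counts are no test of the set either. In bulk RNA, fewer cells with a transcript and less transcript per cell cannot be told apart. Within batch 1 the Ccr9 difference between pGal and OVA was -1.92 on the log2 scale (edgeR adjusted p = 0.217) and the Ccr10 difference was 2.88 (edgeR adjusted p = 0.0795), and the Ccr9 difference between pGal and saline was -2.20 (edgeR adjusted p = 0.0795). Within batch 2, with 2 libraries a group, the same differences were -3.19 and 3.21 (edgeR adjusted p = 0.526 for both), so the directions held and the calls did not. All 3 calls between pGal and OVA were lost without OVA library 2 of batch 1, at edgeR adjusted p = 0.0696 for Ccr9, 0.0628 for Gpr183 and 0.0584 for Ccr10.

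Ccr9 and Gpr183 are the called receptors with an entry in the RefSeq promoter table (GRCm38.p6), and their windows, 250 bases before to 50 bases after the start, are shown because both genes fell with pGal in the same cells. Capitals mark E boxes (CANNTG), the motif of E proteins, which act in T cell development. The Ccr9 window is chr9:123766961-123767260 on the plus strand, inside the annotated gene, and the Gpr183 window is chr14:121965144-121965443 on the minus strand.
Ccr9: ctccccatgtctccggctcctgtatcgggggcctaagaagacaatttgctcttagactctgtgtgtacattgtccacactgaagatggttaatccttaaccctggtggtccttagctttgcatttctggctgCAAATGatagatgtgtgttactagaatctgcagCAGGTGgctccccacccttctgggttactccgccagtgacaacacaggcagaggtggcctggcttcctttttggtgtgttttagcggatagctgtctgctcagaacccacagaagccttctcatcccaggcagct
Gpr183: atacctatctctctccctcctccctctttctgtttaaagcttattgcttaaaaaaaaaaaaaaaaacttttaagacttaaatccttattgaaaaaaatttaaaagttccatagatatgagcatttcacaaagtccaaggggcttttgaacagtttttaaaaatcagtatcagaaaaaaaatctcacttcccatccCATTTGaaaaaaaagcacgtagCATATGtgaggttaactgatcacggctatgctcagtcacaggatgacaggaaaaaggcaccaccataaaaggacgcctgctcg
Each window holds 2 E boxes, and 72.3% of the 32851 promoters in the table hold at least 1. The core CACCC bound by Klf factors, searched on both strands like the others, has 1 match in the Ccr9 window and not in the Gpr183 window, against 57.5% of all promoters. The NFAT core GGAAA has 1 match in the Gpr183 window and not in the Ccr9 window, against 61.3% of promoters, and the Foxo core GTAAACA is in neither, against 3.60%. A match is a description of letters in the window.

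In prophylactic OT-I cells, which were transferred into the same mice, Ccr9 was lower after either antigen in every library. By edgeR only Ccr10 was called there, and at very low levels. No gene was called between pGal and OVA in OT-I cells (0% of 13802) by edgeR, where 420 genes had an unadjusted p under 0.05 and DESeq2 called 1. Against saline 3.35% of genes were called with pGal and 5.39% with OVA, and 1 and 0 of the 5 receptors. An unadjusted p under 0.05 was also reached by S1pr1, Ccr9 and Gpr183 for pGal against saline. The same held for Ccr7, Ccr9 and Gpr183 for OVA against saline and for Ccr10 for pGal against OVA.

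Ccr9 read 100.1, 85.3, 95.1, 24.3 and 19.5 CPM in the OT-I pGal libraries. It read 53.6, 50.1, 75.3, 79.9 and 54.4 CPM in the OT-I OVA libraries and 119, 142, 128, 112 and 122 CPM in the OT-I saline libraries. Both antigen groups lie under all saline libraries, and the pGal group is split by batch, with 85.3 to 100.1 CPM in batch 1 and 19.5 to 24.3 CPM in batch 2. The log2 fold change was -1.08 (SE 0.346, edgeR adjusted p = 0.105) for pGal and -0.93 (SE 0.337, edgeR adjusted p = 0.131) for OVA against saline. DESeq2 called the pGal difference (-1.10, DESeq2 adjusted p = 0.0338). Within batch 2 pGal against saline was -2.42 (edgeR adjusted p = 0.011), and within batch 1 OVA against saline was -1.09 (edgeR adjusted p = 0.00169). Groups without overlap made up 3.38% of genes for pGal and 5.07% for OVA against saline.

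Ccr10 read 0.649, 2.12, 1.18, 7.35 and 3.79 CPM in the OT-I pGal libraries, from 40 to 317 counts, against 0 to 1.37 CPM with OVA and 0 to 0.414 CPM with saline, the saline values from at most 23 counts. The pGal libraries lie above all saline libraries and overlap the OVA libraries. The log2 fold change against saline was 3.62 (SE 0.899, edgeR adjusted p = 0.0397), and it was no longer called when any of 9 of the 15 libraries was left out in turn (edgeR adjusted p up to 0.107). As with Ccr9, the batch 2 pGal libraries (3.79 and 7.35 CPM) stand apart from those of batch 1 (0.649 to 2.12 CPM). The pGal library at 2.12 CPM had 207 CPM of Cd4, and OVA library 1 of batch 1 had 162 CPM. Without these libraries the pGal difference against saline was 3.38 on the log2 scale (edgeR adjusted p = 0.0993). The part of CD4 cells in Ccr10 was not tested.

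Gpr183 showed the 1 treatment effect that edgeR called as different between the cell types. In OT-I cells it read 111, 124, 108, 130 and 159 CPM in pGal libraries, against 169, 142, 155, 115 and 90.7 CPM after OVA and 113, 101, 115, 99.0 and 84.5 CPM after saline. The groups overlap, and the log2 fold change of pGal against saline was 0.33 (SE 0.147, edgeR adjusted p = 0.236). For OVA against saline it was 0.41 (SE 0.147, edgeR adjusted p = 0.122), and 0.53 in batch 1 alone (edgeR adjusted p = 0.00964). The difference between the cell types was itself called: the pGal effect against saline was lower in OT-II than in OT-I cells by a log2 difference of -1.14 (SE 0.187, edgeR adjusted p = 0.00181), in a test in which 1.17% of 14845 genes were called. The Gpr183 difference between cell types was -0.62 for OVA against saline (SE 0.193, edgeR adjusted p = 0.466). For pGal against OVA it was -0.52 (SE 0.193, edgeR adjusted p = 0.301), so the called difference was not shown to be particular to pGal. No other receptor had a called difference between cell types; for Ccr9 it was -2.32 for pGal against OVA (SE 0.574, edgeR adjusted p = 0.0646; 0.505% of genes called) and -2.92 (edgeR adjusted p = 0.00472) without the B cell-rich libraries.

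S1pr1 and Ccr7 were not called in prophylactic OT-I cells by edgeR. DESeq2 called S1pr1 for pGal against saline (log2 fold change -0.22, DESeq2 adjusted p = 0.0493). S1pr1 read 596 to 808 CPM in pGal libraries, 641 to 783 CPM after OVA and 735 to 852 CPM after saline, and Ccr7 read 643 to 1049, 549 to 960 and 819 to 1082 CPM in the same order. All of these ranges overlap, and the edgeR adjusted p was at least 0.14 for S1pr1 and Ccr7 in all 3 OT-I comparisons.

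In the therapeutic experiment no receptor was called in any of the 6 treatment comparisons by edgeR or DESeq2. An unadjusted p under 0.05 was reached by S1pr1 and Gpr183 for pGal against OVA in OT-II cells and by Ccr10 for pGal against OVA and OVA against saline in OT-I cells. The share of all genes called was 0% for pGal against OVA and 0.00702% for pGal against saline in OT-II cells, 1.54% for OVA against saline in OT-II cells, 0% for both pGal comparisons in OT-I cells and 0.686% for OVA against saline in OT-I cells. At an unadjusted p under 0.05 there were 1013 and 418 genes for pGal against OVA in OT-II and OT-I cells and 952 for pGal against saline in OT-I cells, and DESeq2 called 29, 4 and 20 genes in those comparisons.

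**Figure D2:**
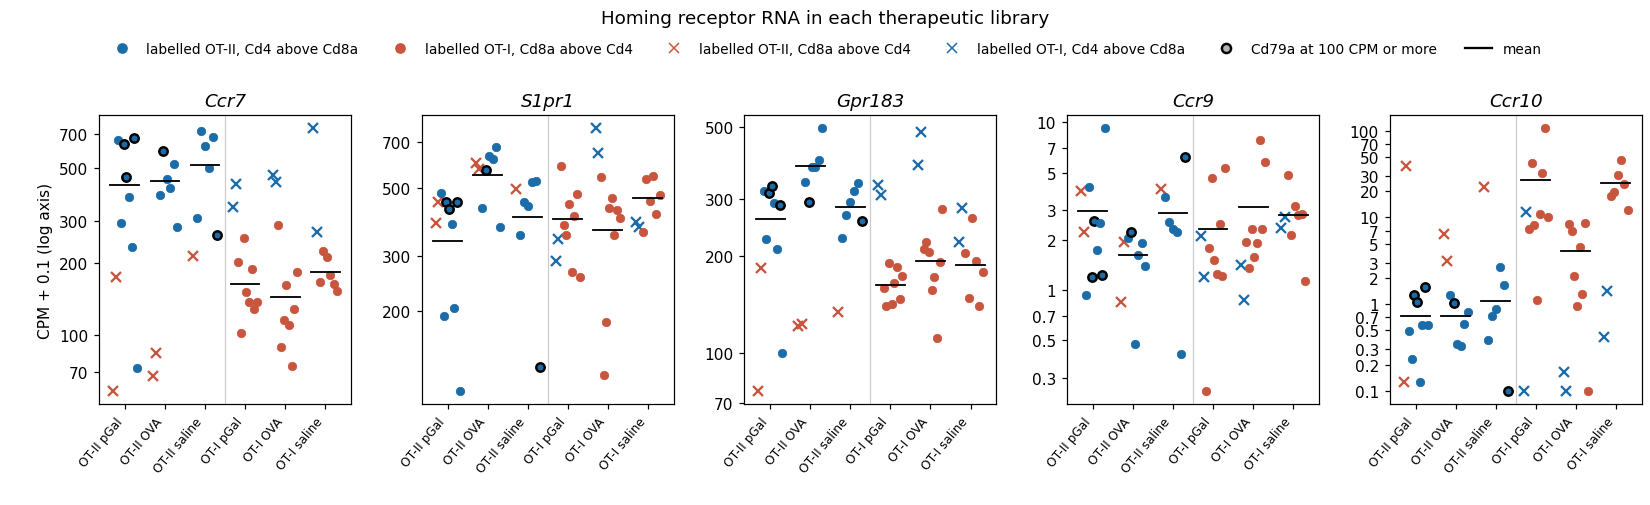
Level of each receptor in every therapeutic library (CPM + 0.1, log axis), OT-II groups left and OT-I groups right by label, with crosses for the 11 libraries whose Cd4 and Cd8a go against the label, coloured by the lineage they carry, and lines for the mean of the matching libraries. The crosses labelled OT-I lie at 270 to 736 CPM of Ccr7 and those labelled OT-II at 58.2 to 214 CPM.

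Ccr10 in therapeutic OT-I cells had the widest spread of the receptors there. It was 1.02 to 106 CPM in pGal libraries (median 10.4, n = 8), 0 to 8.60 CPM after OVA (median 3.24, n = 8) and 12.2 to 45.4 CPM after saline (median 21.8, n = 6). All 8 OVA libraries lie under all 6 saline libraries, as did groups of 0.583% of genes, while the pGal libraries overlap both. The log2 fold change was 2.74 (SE 0.758, edgeR adjusted p = 1.0) for pGal against OVA and -2.68 (SE 0.786, edgeR adjusted p = 0.115) for OVA against saline. Library 8 of the pGal group, at 106 CPM, stands apart from the next at 42.2 CPM. Plasma cell markers summed to 22.9 to 91.1 CPM in pGal libraries, 13.0 to 70.2 CPM after OVA and 4.08 to 56.8 CPM after saline, and their part in Ccr10 was not tested.

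In therapeutic OT-II cells Ccr10 stayed at 0.0263 to 1.46 CPM in pGal libraries, 0.228 to 1.18 CPM after OVA and 0 to 2.57 CPM after saline, and the groups overlap. The difference between the experiments in the pGal effect against saline was -3.91 on the log2 scale (SE 1.06, edgeR adjusted p = 0.0753; 0.80% of genes called). Ccr9 was low in all therapeutic groups, at 0.838 to 9.10 CPM in pGal libraries, 0.374 to 2.13 CPM after OVA and 0.315 to 6.09 CPM after saline in OT-II cells and 0.15 to 7.70 CPM over the 3 OT-I groups. For Ccr9 the pGal effect against OVA differed between the experiments in OT-II cells by 3.42 (SE 0.835, edgeR adjusted p = 0.073; 0.232% of genes called).

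S1pr1 and Gpr183 in therapeutic OT-II cells had lower medians after pGal than after OVA and were not called. S1pr1 had a lowest, median and highest value of 111, 404 and 479 CPM in pGal libraries, 372, 595 and 679 CPM after OVA and 132, 443 and 526 CPM after saline. Gpr183 had 100.3, 289 and 329 CPM in pGal libraries, 293, 376 and 495 CPM after OVA and 227, 281 and 336 CPM after saline. For pGal against OVA the log2 fold change was -0.70 for S1pr1 and -0.53 for Gpr183 (edgeR adjusted p = 0.672 for both). The pGal ranges overlap the others, and 1 pGal library, number 9, was lowest for Ccr7, S1pr1 and Gpr183 and highest for Ccr9. That library had 19565 genes detected from 22.6 M counts, against 15401 to 16958 genes in the other 7 of its group. In OT-I cells OVA library 5 (21312 genes) and pGal library 9 (20911 genes) were the highest of their groups in genes detected and in Ccr9, at 7.70 and 5.26 CPM, and the part of this in the levels was not tested.

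Ccr7 in therapeutic OT-II cells had a lowest, median and highest value of 72.4, 421 and 674 CPM in pGal libraries, 285, 433 and 589 CPM after OVA and 263, 562 and 716 CPM after saline. In therapeutic OT-I cells it had 101.4, 145 and 256 CPM in pGal libraries, 73.5, 121 and 288 CPM after OVA and 153, 173 and 224 CPM after saline. The treatments overlap within each cell type. S1pr1 in OT-I cells ran from 258 to 589 CPM in pGal libraries, 124 to 540 CPM after OVA and 361 to 544 CPM after saline, and Gpr183 from 140 to 190, 111 to 279 and 140 to 262 CPM in the same order, again overlapping.

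**Figure D3:**
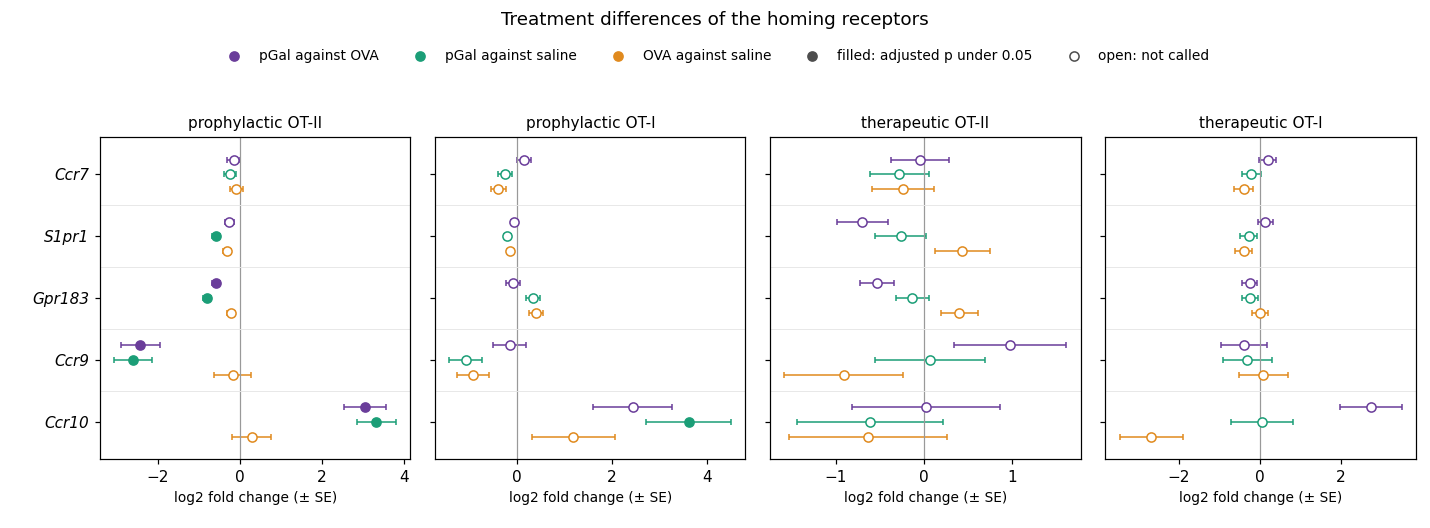
Log2 fold change with its SE for each receptor and treatment comparison, 1 panel per experiment and cell type, with filled points for edgeR adjusted p under 0.05. Filled points appear only in the prophylactic panels, for S1pr1, Gpr183, Ccr9 and Ccr10 in OT-II cells and for Ccr10 in OT-I cells.

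The 2 cell types were compared in saline libraries, of unimmunized recipients in the prophylactic and OVA-immunized recipients in the therapeutic experiment. In prophylactic saline libraries OT-II cells had more Gpr183 and Ccr10 and less Ccr9 than OT-I cells, with 18.1% of 14845 genes called. In therapeutic saline libraries OT-II cells had more Ccr7 and far less Ccr10 than OT-I cells, with 9.00% of 15747 genes called. The therapeutic comparison rests on the libraries whose co-receptor goes with the label. With all libraries as labelled, neither was called (edgeR adjusted p = 0.706 for Ccr7 and 0.721 for Ccr10).

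Gpr183 averaged 245 ± 45.5 CPM in OT-II and 103 ± 12.4 CPM in OT-I prophylactic saline libraries (SD, n = 5 each), without overlap, as in 12.5% of genes, a log2 fold change of 1.27 (SE 0.134, edgeR adjusted p = 1.44e-07). Ccr9 averaged 39.8 ± 6.60 CPM in OT-II and 125 ± 11.3 CPM in OT-I cells, a log2 fold change of -1.62 (SE 0.398, edgeR adjusted p = 0.00488). Ccr10 was at 0.359 to 1.95 CPM in OT-II and 0 to 0.414 CPM in OT-I cells, a log2 fold change of 2.71 (SE 0.757, edgeR adjusted p = 0.0124). Ccr7 did not differ beyond its spread (1027 ± 195 CPM in OT-II and 977 ± 101 CPM in OT-I cells), and S1pr1 was at 930 ± 92.8 and 790 ± 44.6 CPM in the same order (log2 fold change 0.25, edgeR adjusted p = 0.0509). S1pr1 was called in 5 of 7 alternatives, among them DESeq2 (DESeq2 adjusted p = 0.0154) and limma voom (voom adjusted p = 0.0415).

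In therapeutic saline libraries Ccr7 averaged 515 ± 192 CPM in OT-II and 183 ± 28.6 CPM in OT-I cells (SD, n = 6 each), a log2 fold change of 1.48 (SE 0.334, edgeR adjusted p = 0.00185). Ccr10 was at 0 to 2.57 CPM in OT-II and 12.2 to 45.4 CPM in OT-I cells, a log2 fold change of -4.70 (SE 0.964, edgeR adjusted p = 0.00058). Both pairs of ranges are apart, as in 5.20% of genes. Gpr183 averaged 283 ± 40.4 and 187 ± 44.2 CPM in the same order (log2 fold change 0.58, edgeR adjusted p = 0.0696), and S1pr1 and Ccr9 were not called. Gpr183 was called in 2 of 6 alternatives, among them DESeq2 (DESeq2 adjusted p = 0.0175). NK cell markers, 4 genes, summed to 1.12 to 9.31 CPM in the OT-II and 9.26 to 57.9 CPM in the OT-I libraries.

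The 11 libraries left out follow the co-receptor they carry for Ccr7. The 6 labelled OT-I that carry Cd4 had Ccr7 at 270 to 736 CPM, and the 5 labelled OT-II that carry Cd8a had 58.2 to 214 CPM. For Gpr183 the same libraries had 221 to 484 CPM and 76.4 to 183 CPM. For Ccr10 the Cd4-carrying ones were at 0 to 1.31 CPM, apart from OT-I pGal 7 at 11.4 CPM, and the Cd8a-carrying ones were at 3.06 to 39.5 CPM, apart from OT-II pGal 5 at 0.0269 CPM. The Cd8a-carrying saline library had 22.6 CPM of Ccr10, within the 12.2 to 45.4 CPM of the matching OT-I saline libraries.

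**Figure D4:**
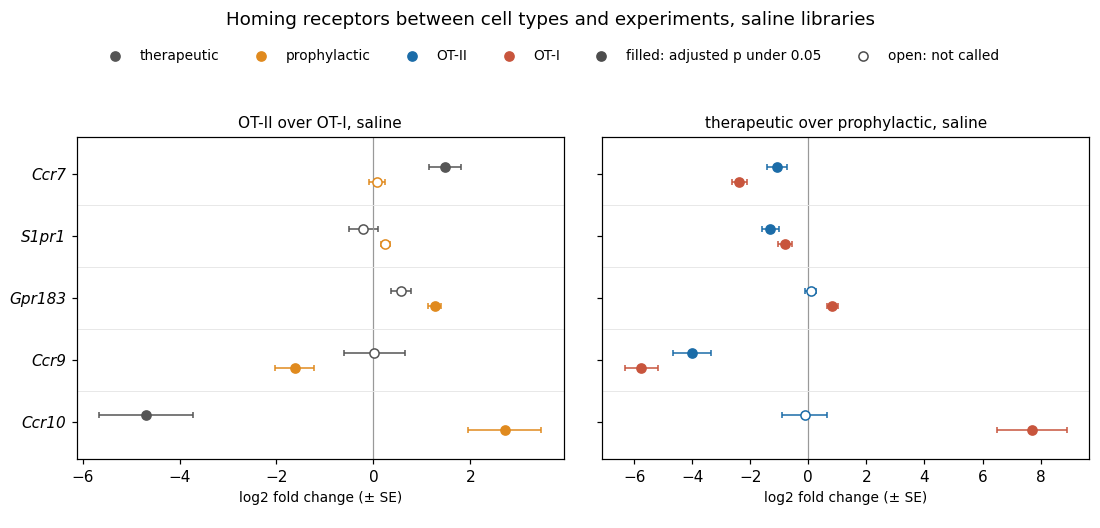
Log2 fold change with its SE in saline libraries, left for OT-II over OT-I in each experiment and right for therapeutic over prophylactic in each cell type, with filled points for edgeR adjusted p under 0.05. Ccr10 lies at -4.70 in therapeutic and 2.71 in prophylactic libraries on the left, and at 7.70 for OT-I cells on the right.

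In saline libraries Ccr7, S1pr1 and Ccr9 were lower in the therapeutic than in the prophylactic experiment in both cell types. Among saline libraries 3 of the 5 receptors were called in OT-II cells (13.4% of 15505 genes called) and 5 of 5 in OT-I cells (18.5% of 15428). The experiments also differ in immunization, time after transfer, pooling, handling after the sort and sequencing table, which cannot be told apart. The summed B cell markers had medians of 464 CPM in OT-II and 450 CPM in OT-I therapeutic saline libraries. In prophylactic saline libraries the medians were 109 and 83.4 CPM in the same order, and their part was not tested.

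Ccr9 averaged 2.78 ± 1.92 CPM in therapeutic and 39.8 ± 6.60 CPM in prophylactic OT-II saline libraries (log2 fold change -4.01, SE 0.638, edgeR adjusted p = 3.33e-05), and 2.72 ± 1.23 CPM against 125 ± 11.3 CPM in OT-I libraries (-5.75, SE 0.580, edgeR adjusted p = 1.5e-09). Ccr7 fell by 1.09 on the log2 scale in OT-II cells (edgeR adjusted p = 0.0292) and by 2.38 in OT-I cells (edgeR adjusted p = 7.7e-09). The Ccr7 call in OT-II cells was lost when prophylactic saline library 1 or 3 of batch 1 or therapeutic saline library 1 or 7 was left out (edgeR adjusted p = 0.0694 to 0.0786). S1pr1 fell by 1.31 (edgeR adjusted p = 0.00228) and 0.79 (edgeR adjusted p = 0.0174) on the log2 scale in OT-II and OT-I cells, and with prophylactic batch 1 alone the OT-I call was lost (-0.79, edgeR adjusted p = 0.0669). In OT-I cells 2 receptors rose, Gpr183 by 0.83 (edgeR adjusted p = 0.00175), to 187 CPM in therapeutic against 103 CPM in prophylactic libraries, and Ccr10 by 7.70 (SE 1.21, edgeR adjusted p = 1.18e-05), to 24.9 ± 11.8 CPM against 0.185 ± 0.167 CPM. With prophylactic batch 1 alone the Ccr10 difference was 7.19 on the log2 scale (edgeR adjusted p = 0.00144).

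Set in order by length, with CPM divided by the longest annotated transcript, Ccr7 led in prophylactic OT-II saline libraries at 519 CPM per kb, before S1pr1 at 305, Gpr183 at 90.0, Ccr9 at 7.66 and Ccr10 at 0.692. The order in therapeutic OT-I saline libraries was S1pr1 at 152, Ccr7 at 92.7, Gpr183 at 68.7, Ccr10 at 14.4 and Ccr9 at 0.523 CPM per kb. Ccr7 and S1pr1 changed places between these groups, as did Ccr9 and Ccr10.

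The surrounding pathway was described with 39 genes for egress, oxysterol synthesis, node entry, mucosal and skin homing, and ligands. In prophylactic OT-II cells 1 of 35 tested was called between pGal and OVA, Itgal, the LFA-1 integrin chain, at a log2 fold change of 0.48 (edgeR adjusted p = 0.0481). Against saline 6 were higher and 2 lower with pGal. The follicle-homing receptor Cxcr5 averaged 109 ± 36.1 CPM with pGal and 14.4 ± 12.5 CPM with saline (log2 fold change 3.13, edgeR adjusted p = 0.000859), and was also higher with OVA (2.87, edgeR adjusted p = 0.0322). Cxcr5 is also a B cell gene, and the OVA values varied widely (121 ± 111 CPM, n = 4).

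The skin-homing genes Ccr4 (log2 fold change 1.99, edgeR adjusted p = 0.0101) and Ccr8 (1.83, edgeR adjusted p = 0.0104) and Fut7, which makes selectin ligands (1.71, edgeR adjusted p = 0.0431), rose with pGal against saline in OT-II cells. They are 3 of the 10 mucosal and skin genes, none of which was lower; the median log2 fold change of the 10 was 0.09, against 0.04 over all genes. For pGal against OVA 0 of the 10 were called by edgeR, with a median of -0.05, against -0.01 over all genes. Klf2, the transcription factor that maintains S1pr1, fell by 0.51 on the log2 scale (edgeR adjusted p = 0.00311) to 529 ± 36.3 CPM with pGal, against 740 ± 74.1 CPM with saline. Cxcr4, the CXCL12 receptor, fell by 0.79 (edgeR adjusted p = 0.0452). Cd69, which holds S1pr1 inside the cell, and the integrin chains Itga4 and Itgb7 had log2 fold changes of -0.02, -0.32 and -0.12 and were not called.

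In prophylactic OT-I cells 3 of 34 pathway genes were higher with pGal than with saline and none lower. These were Cxcr5 (log2 fold change 1.46, edgeR adjusted p = 0.0122), Itga4 (0.97, edgeR adjusted p = 0.0264) and Itgal (0.54, edgeR adjusted p = 0.027). With OVA against saline Cxcr5 (1.71, edgeR adjusted p = 0.00239), Itga4 (1.52, edgeR adjusted p = 0.00119) and Itgal (0.59, edgeR adjusted p = 0.0103) were higher, and Itgae, the integrin chain of epithelial resident cells, fell by 1.10 on the log2 scale (edgeR adjusted p = 0.0299). The 2 comparisons share their saline libraries.

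In therapeutic cells 0 of 36 pathway genes were called for pGal against OVA or saline in either cell type by edgeR, while 4 to 6 in each of the 4 comparisons had an unadjusted p under 0.05. For OVA against saline in OT-II cells Cxcr5 was higher (log2 fold change 1.81, edgeR adjusted p = 0.0101), Klf2 fell by 0.84 (edgeR adjusted p = 0.0499) and Rara, a retinoic acid receptor gene, fell by 1.12 on the log2 scale (edgeR adjusted p = 0.0113). In OT-I cells Itga4 was higher (1.54, edgeR adjusted p = 0.00455) and Fut7 fell by 1.80 (edgeR adjusted p = 0.0226). Against prophylactic saline libraries, therapeutic ones had higher Fut7 in OT-II (3.02, edgeR adjusted p = 0.000188) and OT-I cells (3.41, edgeR adjusted p = 9.61e-07), and OT-I cells had higher S1pr5 (5.23, edgeR adjusted p = 1.3e-07), an S1P receptor of effector cells.

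The genes most like each receptor were ranked over the 12 group means of log2 CPM, among 9581 genes. Ccr9 was most like Ampd1 (Pearson r = 0.985) and Mtrex (0.984), S1pr1 most like Mat2a (0.990) and Dag1 (0.977), and Ccr7 most like Kat6a (0.984) and Casd1 (0.981). Gpr183 was most like Srsf4 (0.943) and Mfap1a (0.922), and Ccr10 most like Sytl2 (0.860) and Smndc1 (0.842). Among the receptors themselves, over the same 12 means, Ccr7, S1pr1 and Ccr9 had r of 0.752 to 0.829 with each other. With the other receptors, Gpr183 had r of -0.614 (Ccr9) to -0.199 (Ccr10), and Ccr10 had r of -0.508 (Ccr7) to -0.199 (Gpr183). The means of 1 experiment share handling and sequencing, so these values describe the groups.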

How the data were processed

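The deposited data are estimated counts for protein-coding genes in 3 tables. Per the submitters' processing notes, the authors used bcl2fastq, kallisto 0.46.1 and the GRCm38 genome. The use of strand and the summing per gene are steps not given in the sources used here. Both the 5 receptors and the 39 pathway genes were chosen with earlier results of these data known. Groups follow the labelled experiment, cell type and treatment, and 11 therapeutic libraries whose Cd4 and Cd8a go against their label were left out of the tests.

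Genes with few counts were removed by filterByExpr. TMM factors set the scale, and edgeR 4.0.16 (quasi-likelihood, robust) in R 4.3.3 fitted all genes, with a batch term in the prophylactic fits. Benjamini-Hochberg adjustment was over all genes tested, with calls at an adjusted p under 0.05. Comparisons were pGal against OVA, pGal against saline, OVA against saline, OT-II over OT-I, therapeutic over prophylactic, and their interactions. Alternatives were DESeq2 1.42.0, voom in limma 3.58.1, other scaling and filters, a replicate block, single batches, and leaving out libraries.

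Named pathway genes were Klf2, Cd69, Itga4, Itgb7 and Cxcr4, and up to 3 called genes with the largest change per comparison. The text gives part of these, and 1 gene of the rule is not reported here; Fut7 for pGal against saline in OT-II cells and Itgal for OVA against saline in OT-I cells were added after their values were seen. Likeness was the correlation over group means of log2(CPM + 1), among genes that reach a mean of 10 CPM in at least 1 group. Coordinates are from GENCODE M21. Labels do not say whether libraries of a group came from separate cell donors, so p-values measure the spread between libraries. Reads were amplified and carry no molecular identifiers, so the precision at a given depth was judged from that spread. The treatment fits and the prophylactic cell type fit were run on simulated counts that held no batch effect. The therapeutic cell type fit and the fits between experiments were not.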

Additional observations from a re-analysis of the deposited data

Results flagged for a closer look

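In prophylactic OT-II cells after pGal, Ccr9 was 19.3 CPM in batch 1 number 3, against 2.77 to 4.87 CPM in the other 4 libraries of the group. The gap was 0.873 of the range, above the 0.71 that Dixon's test allows for 5 libraries. That library had 1036 CPM of Cd79a and 86.1 CPM of Cd8a, and the part of other cells in its Ccr9 was not tested.

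In therapeutic OT-I cells after pGal, Ccr10 was 106 CPM in library 8, against 1.02 to 42.2 CPM in the other 7 libraries, a gap of 0.608 of the range where 0.526 is allowed for 8 libraries. In therapeutic OT-II cells after pGal, Ccr9 was 9.10 CPM in library 9, against 0.838 to 4.03 CPM in the others, a gap of 0.614 of the range; that library had 19565 genes detected, against 15401 to 16958 in the others. These 3 were found among 60 groups tested, and chance marks about 1 in 20 groups.

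The response of Gpr183 to pGal against saline in the prophylactic experiment differed between OT-II and OT-I cells by a log2 difference of -1.14 (edgeR interaction term, adjusted p = 0.00181). The same term was not called for pGal against OVA (-0.52, edgeR adjusted p = 0.301).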

How the results depend on the processing

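No called receptor changed direction under any alternative run. Of the receptor differences, DESeq2 gave 137 an adjusted p, of which 8 were newly called and 0 lost; the other 3 were Ccr9 in the prophylactic OT-II comparisons, 2 of them called by edgeR. Limma voom gave 140, of which 1 was newly called and 0 lost. For pGal against OVA in prophylactic OT-II cells, 3 receptors were called, against 1 in batch 1 alone, 0 in batch 2 alone and 0 to 3 with each library left out in turn; Ccr9 was lost without any 1 of 6 libraries. For pGal against saline there 4 were called, 0 in batch 2 alone, and 4 in batch 1 alone with Ccr7 in place of Ccr9. For pGal against saline in prophylactic OT-I cells the count of 1 (Ccr10) became 3 with DESeq2, which also called S1pr1 and Ccr9. It became 0 in batch 1 alone, 0 without the batch term and 0 without the OT-I libraries with Cd4 at 100 CPM or more. With libraries left out it was 0 to 1, and Ccr10 was lost without any 1 of 9. For OVA against saline in those cells the count of 0 became 2 in batch 1 alone and 0 to 1 with libraries left out. The cause was not tested.

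For the difference between cell types in pGal against OVA, 1 receptor (Ccr9) was called with DESeq2, 1 without the B cell-rich libraries and 0 to 1 with libraries left out. In pGal against saline 2 were called without the B cell-rich libraries and 1 to 2 with libraries left out. Ccr9 was called in both without OT-II pGal library 3 of batch 1 (-3.11 and -2.35, edgeR adjusted p = 0.00164 and 0.00427). For the difference between experiments in OT-II cells, DESeq2 called 1 receptor (Ccr9) in pGal against OVA and 2 (Ccr9, Ccr10) in pGal against saline. Leaving out the prophylactic B cell-rich libraries called 1 (Ccr9) in each, and leaving out each saline library called 0 to 1 in each. Leaving out libraries for cell types and experiments was chosen after seeing the data. OT-II over OT-I in therapeutic saline had 2 called, 0 with all libraries as labelled and 2 to 3 with libraries left out; in prophylactic saline 3 were called and 3 to 4 with libraries left out (S1pr1). Ccr7 in OT-II saline, therapeutic over prophylactic, was lost without a filter on low counts, with all libraries as labelled, with prophylactic batch 1 alone (edgeR adjusted p = 0.0517 to 0.113) and without any 1 of 4 saline libraries, where 2 to 3 receptors were called.

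Same-numbered libraries deviated together, at a correlation over 0.1, in 3 of 13 OT-II and 5 of 15 OT-I pairs in prophylactic and 4 of 13 and 6 of 15 in therapeutic treatment fits. Between cell types it was 10 of 14 pairs in the prophylactic and 17 of 19 in the therapeutic experiment, with median correlations of 0.21 and 0.27, against -0.002 and -0.001 for other numbers. The labels do not say what a number marks and not every pair passed, so the block stayed an alternative. The main fits therefore treat libraries as independent, also between the cell types, where most same-numbered pairs deviated together. With a replicate block, 1 receptor was called for pGal against OVA in prophylactic OT-II cells, 0 for pGal against saline in prophylactic OT-I cells and 1 (Ccr9, edgeR adjusted p = 0.0486) for the difference between cell types in pGal against OVA, and S1pr1 was newly called for OT-II over OT-I in prophylactic saline (edgeR adjusted p = 0.0355).

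Counts of called genes also moved by over 1.5 times. For pGal against OVA in prophylactic OT-II cells edgeR called 264, with 0 (batch 2 alone) to 914 (DESeq2) over the alternatives and left-out libraries, given in brackets from here on; for pGal over saline it called 1655 (0 to 2490) and for OVA over saline 23 (0 to 146). In prophylactic OT-I cells pGal over saline had 463 (26 to 1153) and OVA over saline 744 (19 to 1356). In therapeutic cells OVA over saline had 219 in OT-II (64 to 714) and 100 in OT-I (24 to 466). There pGal against OVA or saline had 0 or 1 in the main edgeR fits, up to 11 in the other edgeR runs and 4 to 169 with DESeq2. In saline, therapeutic OT-II over OT-I had 1418, and 0 with all libraries as labelled; therapeutic over prophylactic had 2085 in OT-II (1180 with prophylactic batch 1 alone) and 2860 in OT-I cells (1817). The difference between cell types had 75 for pGal against OVA (0 to 252) and 173 for pGal against saline (119 to 398), and that between experiments in OT-II cells 36 (6 to 169) and 124 (59 to 269).

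By Spearman correlation the gene most like S1pr1 was again Mat2a, and those of the other 4 receptors changed.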
